A study of Mus musculus with 12 samples.

Results

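Shp2 is a cytoplasmic tyrosine phosphatase encoded by Ptpn11, and the 10 genes described here are Ptpn11, its relative Ptpn6 (Shp1) and 8 adaptors and exchange factors that link it to receptors and to Ras. They were chosen by name as the targeted gene of the study and the proteins that dock it, and all 10 were found among the 56748 genes of the table. The rule itself used no measured value, but earlier results of these data were known when it was set. RNA was sequenced from the retinas of mice aged 2 weeks, in 12 libraries with 3 replicates in each of 4 groups. Het mice were RiboTag, Shp2fl/+ and i75-Rod-Cre, so that 1 Shp2 allele was floxed. KO mice were RiboTag, Shp2fl/fl and i75-Rod-Cre, with both alleles floxed. Controls therefore carried Cre, the tagged ribosomes and 1 floxed allele as well, and the titles of these libraries call them wt although their genotype is listed as heterozygous. For each genotype, "rods" are RNA pulled down with HA-tagged ribosomes of rods (translating ribosome affinity purification, TRAP), and "retina" is the RNA of the whole tissue before the pull-down. Cre was driven by the rhodopsin promoter, so tagging and deletion were both directed to rods. How many mice went into a library, and which libraries shared a mouse, are not given in the sources used here, so p-values measure only the spread between these samples, which may be technical.

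Shp2 carries SH2 domains that bind phosphotyrosine on docking proteins, and this binding opens the phosphatase. In growth factor and insulin signalling, activated receptors phosphorylate docking proteins such as Gab1, Gab2 and Frs2. Grb2 and Shc1 connect these to the Ras exchange factors Sos1 and Sos2, and Shp2 sustains the Ras and ERK signal that follows. Pag1 is a membrane adaptor that holds Csk, the kinase that shuts off Src family kinases, and Shp2 can dephosphorylate it. Shp1, encoded by Ptpn6, has the same domain order and is known mainly from blood cells, microglia included.

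The TRAP libraries matched their label. The 10 rod markers, such as rhodopsin, summed to 4.85% to 6.49% of the deposited values in retina and to 14.8% to 18.4% in rods. All 10 were higher in rods in both genotypes. The median log2 fold changes of the Muller, bipolar, amacrine, ganglion cell, microglia and vessel lists lay between -3.85 and -5.17. Of 11 microglia and 9 vessel markers, 8 and 8 were tested in Het mice and 9 and 6 in KO mice. No microglia marker reached the filter value of about 10 in a rod library, so those tested could only be lower. This held for some markers of the other lists as well. Cone markers were less depleted, with medians of -1.10 and -0.94. Of the 6 markers of the retinal pigment epithelium (RPE), 5 were tested and lower in Het mice (median -3.70), whereas 2 of 6 passed as lower in KO mice (median -3.46). Their summed values ranged from 211 to 4957 in KO retina, with the highest in replicate 3. The deposited values are whole numbers that behave as reads multiplied by 1 factor per library, with totals of 14525527 to 14527992 in retina and 16263948 to 16265259 in rods. Estimated reads ranged from 9980000 in KO retina replicate 1 to 25280000 in Het rods replicate 2.

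The promoters of Ptpn11, Gab1 and Ptpn6 are shown because these genes stood for the patterns described below, kept in rods, lower in rods and barely detected. Each is the 250 bases before the start site, read 5′ to 3′ on the gene's strand, from RefSeq on GRCm38.p6, with CpG dinucleotides in capitals. The build given for the study is GRCm39, so these positions are not those of its files.

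Ptpn11, minus strand, chr5:121191398-121191647: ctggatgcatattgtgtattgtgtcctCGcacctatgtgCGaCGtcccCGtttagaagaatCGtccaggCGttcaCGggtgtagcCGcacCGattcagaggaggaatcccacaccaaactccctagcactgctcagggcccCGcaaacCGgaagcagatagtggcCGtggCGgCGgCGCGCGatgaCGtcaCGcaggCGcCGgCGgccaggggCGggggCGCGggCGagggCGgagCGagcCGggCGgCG

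Gab1, minus strand, chr8:80880520-80880769, the first of its listed start sites: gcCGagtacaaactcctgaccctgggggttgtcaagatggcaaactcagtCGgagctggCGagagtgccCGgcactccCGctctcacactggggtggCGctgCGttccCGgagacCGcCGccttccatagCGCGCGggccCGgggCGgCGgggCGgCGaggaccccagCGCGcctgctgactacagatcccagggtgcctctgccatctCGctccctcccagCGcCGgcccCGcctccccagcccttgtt

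Ptpn6, minus strand, chr6:124738710-124738959: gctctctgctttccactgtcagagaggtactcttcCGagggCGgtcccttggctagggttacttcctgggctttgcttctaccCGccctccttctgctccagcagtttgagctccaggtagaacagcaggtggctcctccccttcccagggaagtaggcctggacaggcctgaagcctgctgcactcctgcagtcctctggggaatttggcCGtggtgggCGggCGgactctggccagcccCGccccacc

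The Ptpn11 window held 31 CpG, more than 94.8% of 32817 promoter windows of the same length, and that of Gab1 held 24. The Ptpn6 window held 7, close to the median of 6. Promoters were listed for 8 of the 10 genes, in 11 windows, and none for Gab2 and Pag1. The letters TAATCC, the core recognised by photoreceptor homeodomain factors such as Crx, were searched on both strands (TAATCC or GGATTA). They were in 0 of the 11 windows and in 6.25% of all windows, which describes these letters only.

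Levels of different genes were compared per kilobase of transcript, as deposited values. Ptpn11 had the highest level of the 10 in every group. It stood at 418 ± 35.3 in Het retina, 406 ± 30.3 in KO retina, 439 ± 7.87 in Het rods and 348 ± 36.2 in KO rods (SD, n = 3). Grb2, the small adaptor between receptors and Sos, came next at 331 ± 37.3, 342 ± 47.3, 218 ± 12.9 and 248 ± 2.59. Its values did not overlap with those of Ptpn11 in any group, but per coding length Grb2 ranked first in both retina groups, with overlapping values. In Het retina Sos2 (134), Frs2 (123), Sos1 (97.2), Shc1 (77) and Gab1 (71.5) followed, and each overlapped with its neighbour in this order. Pag1 (54.9) and Gab2 (49) also overlapped, and Ptpn6 was last at 6.07.

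In rods the order spread out. In Het rods Sos2, Frs2 and Sos1 lay together between 88.8 and 96.3 per kilobase, whereas Shc1 was at 29.1, Gab1 at 16.5, Pag1 at 15.4 and Gab2 at 2.11. The groups Sos1, Shc1, Gab1 with Pag1, and Gab2 did not overlap. Since the ratio of 2 genes in 1 library does not depend on scaling, the share of Ptpn11 in the summed level of the 10 genes was also taken. It was 28.1% to 32.0% in the 6 retina libraries, 43.5% to 44.9% in the 3 Het rod libraries and 35.8% to 41.4% in the 3 KO rod libraries. Per kilobase of transcript, Gab1 exceeded Gab2 by a ratio of 1.28 to 1.87 in retina and of 5.36 to 10 in rods.

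**Figure D1:**
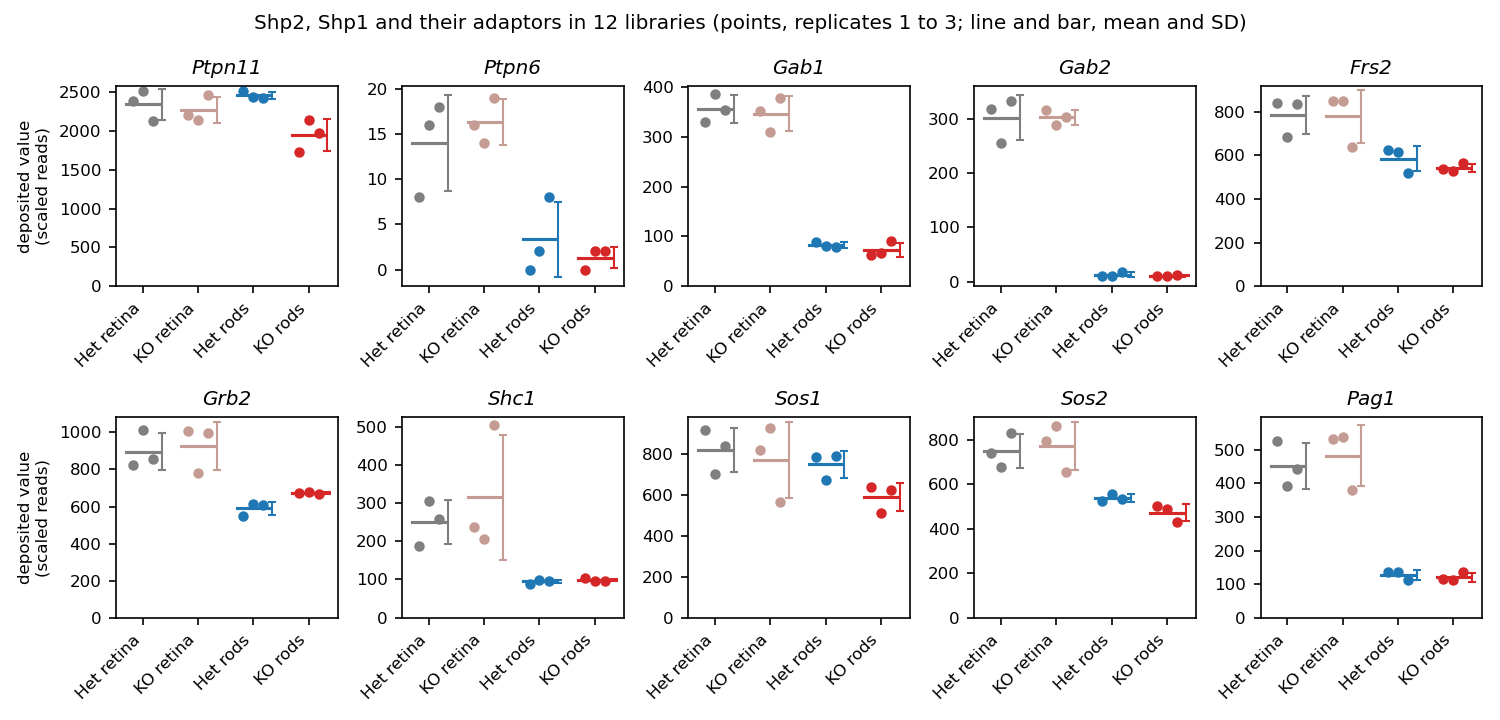
Deposited values (reads scaled by 1 factor per library) of the 10 genes in the 12 libraries, by group. Points are replicates 1 to 3 from left to right, the horizontal line is the mean and the bar the SD. Gab1, Gab2, Shc1 and Pag1 sit far lower in rods than in retina in both genotypes, Ptpn11 does not, and the 3 KO rod values of Ptpn11 (1735 to 2139) lie below the 3 Het rod values (2431 to 2511).

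The first comparison asked which of these genes were carried on rod ribosomes at the level of the whole retina. Gab1, Gab2, Shc1 and Pag1 were lower in rods in both genotypes, with log2 fold changes of -1.11 to -4.14 in Het and -1.17 to -4.17 in KO mice. Ptpn11, Frs2, Grb2, Sos1 and Sos2 had log2 fold changes between -0.35 and 0.325. Of the 9 genes tested in Het mice, 4 were lower and 1 was higher, where 37.4% and 24.9% of the 16110 genes tested were lower and higher. In KO mice 10 were tested, 5 were lower and 0 were higher, against 37.4% and 30.0% of 16121 genes. Among these 5 is Ptpn6, which no rod library held at the filter value and which could only be lower, and the other 9 gave 4 lower and a median of -0.33. The median log2 fold change of the tested members was -0.35 in Het mice and, with Ptpn6 counted, -0.75 in KO mice. That of all genes was -0.11 and -0.02. Of genes with a rod library at the filter value, 30% were higher and 24.9% lower in Het mice, with a median of 0.13. In KO mice 36.1% of such genes were higher and 25.2% lower, with a median of 0.21. All fold changes are on the log2(value + 2) scale after TMM scaling, called at an adjusted p below 0.05 in limma. TMM raised rods relative to retina. With the library totals alone the median of all genes moved from -0.11 to -0.51 in Het and from -0.02 to -0.545 in KO mice. In these fits 7 members in Het and 10 in KO mice were called lower. Of all genes tested, 7650 of 16110 were lower in Het and 8198 of 16121 in KO mice. In whole tissue, fewer cells of a type and less RNA per cell cannot be told apart.

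Ptpn11, the targeted phosphatase, had deposited values of 2390, 2512 and 2125 in Het retina and 2511, 2439 and 2431 in Het rods. The groups overlapped before TMM scaling. After it Ptpn11 was higher in Het rods (log2 fold change 0.325 ± 0.109 SE, adjusted p = 0.029, limma). The call was lost on leaving out any of the 6 libraries (adjusted p 0.056 to 0.2), and with library totals alone the difference was -0.09. It was also lost with a filter at about 50 (0.085) and without the trend and robust options (0.078). With the GC trend removed the log2 fold change was 0.85 (adjusted p = 2.4e-06), where the median of all genes was 0.44. In KO mice the values were 2205, 2147 and 2466 in retina and 1735, 2139 and 1971 in rods. Every KO rod value lay below every KO retina value, as for 48.7% of all genes tested. The KO log2 fold change was 0.15 ± 0.13 (adjusted p = 0.32, limma). With library totals alone Ptpn11 was called lower (-0.387, adjusted p = 0.027), where the median of all genes was -0.545. With the GC trend removed it was called higher (0.57, adjusted p = 0.00026), where the median of all genes was 0.46. The direction in KO mice thus depended on the scaling.

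Gab2, one of the docking proteins that Shp2 binds, showed the largest difference of the 10. Its deposited values were 319, 255 and 333 in Het retina and 316, 288 and 304 in KO retina. In rods they were 11, 10 and 18 for Het and 10, 11 and 13 for KO. The log2 fold change was -4.14 ± 0.27 in Het mice (adjusted p = 3.6e-06) and -4.17 ± 0.21 in KO mice (adjusted p = 1.3e-06). The medians of the Muller, bipolar, amacrine and ganglion cell lists given above were more negative, at -4.65 to -5.17. Those of the vessel list were -4.34 in Het and -4.61 in KO mice. The microglia medians, from markers that could only be lower, were -4.02 and -3.85. Whether RNA of other cells carried over in the pull-down made up the remaining Gab2 values was not tested.

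Gab1, the docking protein of growth factor receptors, was lower by a smaller amount. It was at 330, 386 and 354 in Het retina and 89, 80 and 78 in Het rods. In KO mice it was at 352, 310 and 379 in retina and 63, 66 and 90 in rods. No rod value reached the lowest retina value. Deposited values were lower in rods without overlap for 45.7% of all genes tested in Het and 48.7% in KO mice. Among them were Frs2, Grb2 and Sos2, which were not called in either genotype. The log2 fold changes were -1.84 ± 0.17 (adjusted p = 2.5e-05) and -1.86 ± 0.20 (adjusted p = 5.3e-05), which left 0.279 and 0.275 of the retina level.

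Pag1, the membrane anchor of Csk, had a like pattern. Het retina gave 526, 391 and 442 and Het rods 136, 135 and 111. KO retina gave 531, 539 and 379 and KO rods 114, 111 and 136. The groups did not overlap in either genotype, as for the shares of all genes given with Gab1. The log2 fold changes were -1.56 ± 0.17 and -1.60 ± 0.18, with an adjusted p of 6.3e-05 in each.

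Shc1, which couples receptors to Grb2, was at 188, 304 and 259 in Het retina and at 89, 99 and 96 in Het rods. In KO mice it was at 236, 206 and 503 in retina and at 103, 97 and 96 in rods. The rod values were close together and the retina values were not. The log2 fold change was -1.11 ± 0.23 in Het (adjusted p = 0.0025) and -1.17 ± 0.33 in KO mice (adjusted p = 0.012). The value of 503 came from KO retina replicate 3, which also held the highest RPE marker sum (4957). Apoe of Muller cells (7550), Csf1r of microglia (252) and Pdgfrb of vessels (275) were highest in this library too. Slc1a3 of Muller cells (2664) and Kdr of vessels (1653) were instead at their lowest retina value in it. A part of RNA of any of these cells in the Shc1 value of this library was not tested. Without that library the KO log2 fold change was -0.93 (adjusted p = 0.0015), and each of the 6 fits that left out 1 library kept the call (-1.59 to -0.93).

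Ptpn6 was near the detection limit of the rod libraries. It was at 8, 16 and 18 in Het retina and 16, 14 and 19 in KO retina. In rods it was at 0, 2 and 8 for Het and 0, 2 and 2 for KO, where 3 reads made a value of 1.93 to 4.1. It did not pass the filter on low values in the Het comparison. In the KO comparison it passed through its retina values alone, so that its log2 fold change of -2.30 ± 0.40 (adjusted p = 0.00086) could only be negative and is given as a description. The 11 microglia markers were lower in rods too, where they could only be lower. The medians of the other lists of non-rod cells were negative as well, so the drop was not particular to microglia. The microglia markers summed to 319 to 779 in retina and to 2 to 20 in rods, and 2 of the 11 were at 0 in every Het rod library. A part of microglia RNA in the Ptpn6 values was not tested.

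The remaining genes carry the signal from the docking proteins to Ras. Grb2 was at 823, 1012 and 855 in Het retina and 550, 613 and 608 in Het rods, a log2 fold change of -0.35 ± 0.14 that missed the threshold (adjusted p = 0.056). With the replicate number as a block, Grb2 passed (adjusted p = 0.037), and in this comparison same-numbered rod and retina libraries deviated together. In KO mice Grb2 was at 1005, 779 and 997 in retina and 672, 680 and 666 in rods (log2 -0.08 ± 0.14, adjusted p = 0.63).

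Frs2, the docking protein of fibroblast growth factor receptors, was at 839, 686 and 835 in Het retina and 623, 614 and 519 in Het rods. The KO values were 849, 847 and 639 in retina and 536, 526 and 565 in rods. Its log2 fold changes were -0.17 ± 0.14 and -0.14 ± 0.13 (adjusted p = 0.3 and 0.39).

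Sos1 and Sos2, the exchange factors that load Ras with GTP, did not pass either. Sos1 was at 917, 702 and 841 in Het retina, 786, 673 and 789 in Het rods, 818, 929 and 568 in KO retina and 637, 512 and 622 in KO rods. Sos2 was at 743, 680 and 830 in Het retina, 527, 559 and 534 in Het rods, 798, 864 and 655 in KO retina and 501, 488 and 429 in KO rods. The log2 fold changes of Sos1 were 0.13 ± 0.14 in Het (95% interval -0.18 to 0.44) and 0.01 ± 0.18 in KO mice (-0.40 to 0.43). Those of Sos2 were -0.22 ± 0.13 (-0.51 to 0.07) and -0.33 ± 0.14 (-0.64 to -0.02, adjusted p = 0.058).

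**Figure D2:**
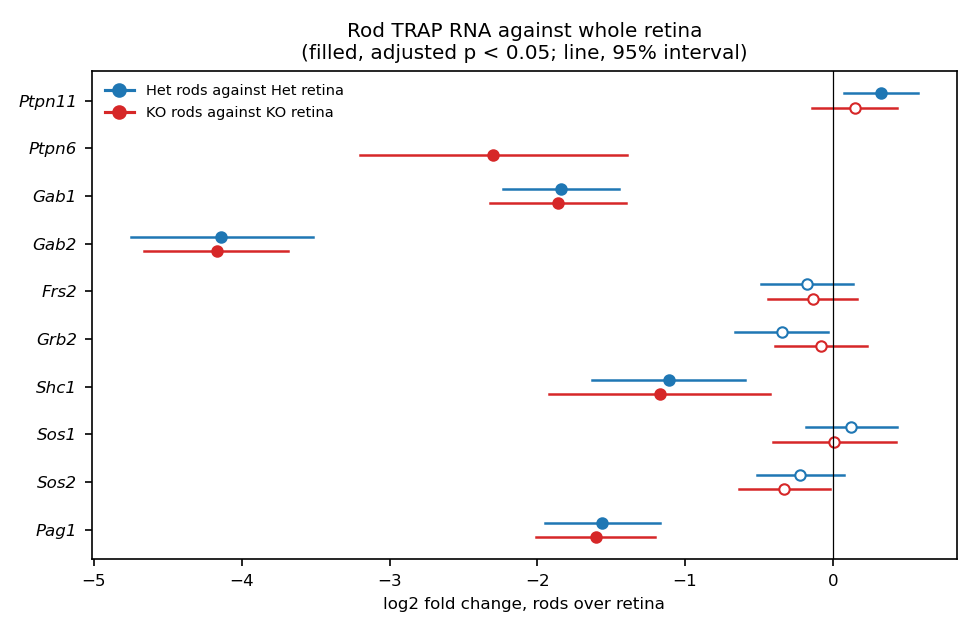
Log2 fold change of rod TRAP RNA over whole retina for each gene, in Het (blue) and KO (red) mice. Lines are 95% intervals over 3 against 3 libraries, filled points passed an adjusted p of 0.05, and Ptpn6 was not tested in Het mice. Gab2 lies near -4.1 in both, Gab1, Pag1 and Shc1 lie between -1.1 and -1.9, Ptpn6 lies at -2.30 in KO mice, and the other genes lie between -0.35 and 0.325.

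In Het retina replicate 2 and KO retina replicate 3, Frs2, Sos1, Sos2 and Pag1 each had the lowest value of their group, and Ptpn11, Gab1 and Shc1 the highest. The transcripts of the former have a GC content of 41% to 47.4%, and those of the latter 51.8% to 53.2%. Gab2, Grb2 and Ptpn6 did not follow this split in both libraries. Gab2 (51.2%) was lowest in Het retina replicate 2 (255). Grb2 (51.9%) was highest in KO retina replicate 1 (1005), and Ptpn6 (54.9%) in Het retina replicate 3 (18). The pattern was picked after the values were seen, and a part of RNA quality or library preparation in it was not tested. Without Het retina replicate 2, Frs2 (log2 -0.38, adjusted p = 0.029), Sos2 (-0.40, 0.023) and Grb2 (-0.37, 0.03) were lower in Het rods. Grb2 was also lower without Het retina replicate 1 (-0.499, 0.042) or 3 (-0.42, 0.035). Without KO retina replicate 3, Frs2 (-0.43, adjusted p = 0.0047), Sos1 (-0.35, 0.034) and Sos2 (-0.60, 0.0024) were lower in KO rods. Without KO retina replicate 2, Grb2 (-0.38, 0.02) and Sos2 (-0.42, 0.036) were lower. Leaving out a retina library also removed genes that passed the filter through retina alone, so that 13394 to 13398 genes were tested in Het mice in place of 16110, and the median of all genes moved from -0.11 to between 0.03 and 0.05. A filter at about 50 with all libraries called Grb2 lower in Het (-0.43, 0.024) and Sos2 in KO mice (-0.42, 0.02). The left-out library and the changed filter cannot be told apart in these fits. Gab1, Gab2, Shc1 and Pag1 were called lower in both genotypes in each of the 18 alternative fits.

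The next comparison asked what the deletion did to the targeted gene and its partners in rods. In rods, the 3 KO values of Ptpn11 were below the 3 Het values, at 1735, 2139 and 1971 against 2511, 2439 and 2431. The mean was 1948 ± 203 in KO and 2460 ± 44.1 in Het rods (SD, n = 3). The log2 fold change was -0.26 ± 0.09 (95% interval -0.46 to -0.05), or 0.836 of the Het level, and it missed the threshold at an adjusted p of 0.064. The sign was negative in all 20 alternative fits (-0.365 to -0.173), and 7 of them passed. Without KO rods replicate 2, the highest of the KO values, it was -0.36 (adjusted p = 0.019). Without KO rods replicate 1, the lowest, it was -0.17 (adjusted p = 0.26), and the other 4 fits with a library left out missed the threshold as well (0.091 to 0.14). A value per gene sums all exons. Reads of the floxed part were not separated from the rest of the transcript, so that these values do not measure how complete the deletion was. The Het controls carried 1 floxed allele. Of the 10 rod markers, 4 were higher and 1 was lower in KO rods (median log2 0.228), and their part in the Ptpn11 value was not tested.

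Grb2 went the other way. Its KO rod values (672, 680 and 666) were all above its Het rod values (550, 613 and 608), and the log2 fold change was 0.27 ± 0.10 with an adjusted p of 0.056. Sos1 was at 637, 512 and 622 against 786, 673 and 789, a log2 fold change of -0.26 ± 0.11 (adjusted p = 0.092). Without Het rods replicate 2 the adjusted p of Sos1 was 0.048. Sos2 had KO values below the Het values too, with a log2 fold change of -0.11 ± 0.11 (adjusted p = 0.47).

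None of the 9 members tested passed the threshold in limma, of which 3 had an unadjusted p below 0.05 (Ptpn11, Grb2 and Sos1). Of the 13055 genes tested, 15.7% were higher and 8.58% lower in KO rods. KO values lay above all Het values for 1 member and below them for 3, where 19.0% and 27.2% of all genes did so. Gab1, Gab2, Frs2, Shc1 and Pag1 overlapped, with log2 fold changes between -0.10 and 0.14. Their intervals were as wide as -0.83 to 0.69 for Gab2, so that no change and a moderate change were both within error. Ptpn6, at 0 to 8, was not tested.

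**Figure D3:**
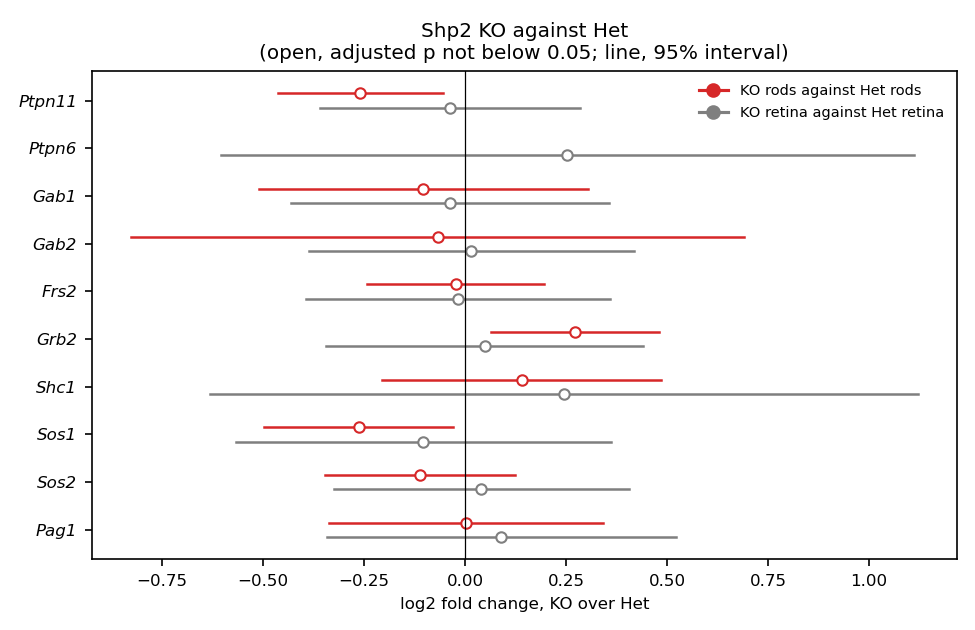
Log2 fold change of KO over Het for each gene, in rods (red) and whole retina (grey), with 95% intervals over 3 against 3 libraries. All points are open because none passed an adjusted p of 0.05. In rods the intervals of Ptpn11 (-0.46 to -0.05), Grb2 (0.06 to 0.48) and Sos1 (-0.50 to -0.03) exclude 0 before adjustment.

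The difference between KO and Het rods moved with the GC content of the gene. Across the genes tested, its Spearman correlation with transcript GC content was 0.70, a description over genes, which are not independent replicates. In 10 bins of equal size by GC, the median log2 fold change ran from -0.28 in the lowest bin to 0.69 in the highest. Ptpn11, with a GC content of 51.8%, was set beside 1339 genes within 1 percentage point, whose median was 0.10 against its -0.26. Of these, 10.7% were lower. With the trend of each library removed, the log2 fold change of Ptpn11 was -0.365 (adjusted p = 0.016). Sos1 (41.0%) lay at the median of its 749 neighbours in GC, at -0.26 against -0.27, and had an adjusted p of 1 with the trend removed. Grb2 (51.9%) stood at 0.27 where its neighbours had a median of 0.11, and at 0.16 with the trend removed (adjusted p = 0.22).

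**Figure D4:**
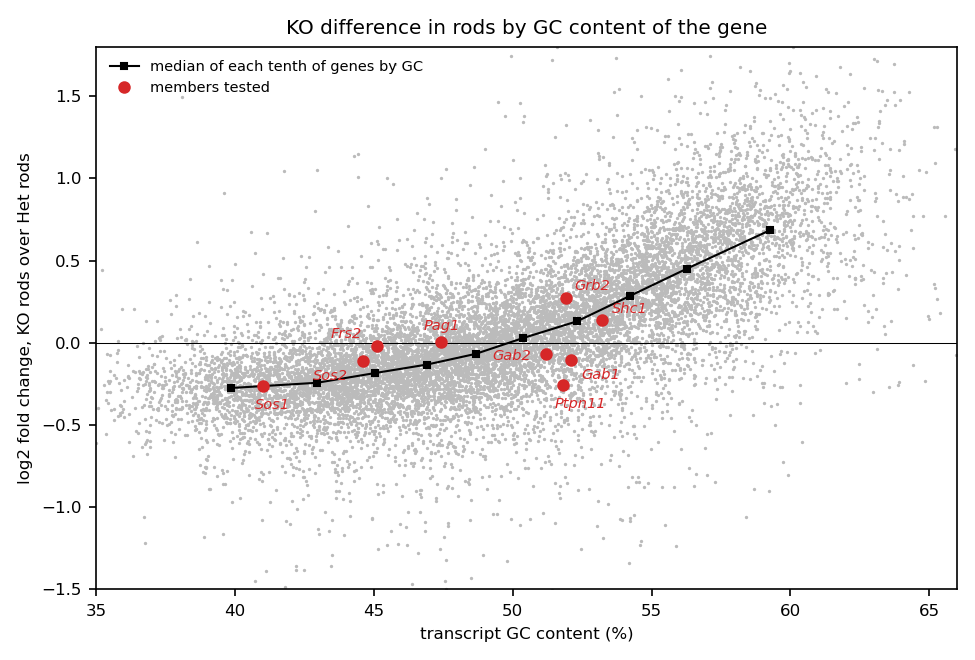
Log2 fold change of KO over Het rods against transcript GC content in percent, for all genes tested (grey), the 9 members tested (red) and the median of each of 10 GC bins (black line, from -0.28 to 0.69). A few genes lie outside the axes. Sos1 sits on the line at low GC, and Ptpn11 sits below it at 51.8%.

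In whole retina, no member passed the threshold between KO and Het mice. Ptpn11 was at 2205, 2147 and 2466 in KO and 2390, 2512 and 2125 in Het retina, which overlapped. The log2 fold change was -0.04 ± 0.14 (95% interval -0.36 to 0.28, adjusted p = 1), an interval that includes the value of -0.26 found in rods. All 10 genes were tested and 0 were called, as were 0% of the 16863 genes tested, of which 140 had an unadjusted p below 0.05. The log2 fold changes of the other 9 lay between -0.10 for Sos1 and 0.25 for Ptpn6. An interaction term fitted to all 12 libraries asked whether the KO effect differed by fraction, as rods minus retina. It was -0.325 ± 0.157 for Ptpn11 (95% interval -0.665 to 0.014, adjusted p = 0.8). No member was called, as for 0% of 17192 genes (601 with an unadjusted p below 0.05). The members differed by -0.73 for Ptpn6 to 0.12 for Grb2.

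Across the 12 libraries the genes whose log2 values followed Ptpn11 most closely were Poglut2 (Pearson r = 0.929), Mettl2 (0.928), Hdgf (0.925), Babam2 (0.921) and Armh3 (0.917). They came from 10391 genes with a mean of at least 100, and the libraries share fraction, genotype and scaling. By Spearman correlation 2 of these 5, Hdgf and Armh3, were again among the first 5. None of the members ranked there. Sos1 had an r of 0.29 with Ptpn11, and Gab1 (-0.65), Gab2 (-0.72) and Pag1 (-0.74) had the most negative values.

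The other genes of the pathway were described with a list of 63 partners in 6 roles, of which 62 were in the table. In Het mice 46 were tested, 5 were higher and 27 were lower in rods, and the median of their log2 fold changes was -1.35. In KO mice 7 were higher and 27 lower of 47. Of all genes, 24.9% were higher and 37.4% lower in Het and 30.0% and 37.4% in KO mice. In Het mice 11 of the 46 had no rod library at the filter value, so that they could only be lower, and all 11 were called. Of the other 35, 5 were higher and 16 lower, with a median of -0.63, where 30% and 24.9% of such genes over the whole table were. In KO mice 13 entered in that way, and 12 of them were called lower. Of the other 34, 7 were higher and 15 lower, where 36.1% and 25.2% of such genes over the whole table were. The values by role below are those of Het mice, unless said otherwise. With library totals alone 2 were higher and 32 lower in Het mice, and with the GC trend removed 13 and 24. Of all genes, 1541 were higher and 7650 lower of 16110 with library totals. With the GC trend removed 8099 were higher and 5062 lower of 15879.

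Among receptors that recruit Shp1 or Shp2, Sirpa was higher in rods, at 3642, 4357 and 2696 in Het retina and 5808, 6460 and 5388 in Het rods (log2 0.998 ± 0.177, adjusted p = 0.0011). Sirpa is a membrane receptor of the CD47 ligand. Mpzl1 (-1.20) and Pecam1 of vessels (-0.93) were lower, and 6 of the 10 receptors were too low to test in Het mice. Among docking proteins, Irs1 was lower (-2.42). Dok6 (-4.79) and Dok5 (-4.39) passed the filter through retina alone, at 2 to 10 in Het rods, and their values are given as a description. Irs2, the insulin receptor substrate with the highest mean of this group, did not pass in Het mice (0.0033 ± 0.177) and was higher in KO mice (0.41, adjusted p = 0.032).

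Among SH2 and SH3 adaptors, 2 of 12 were higher and 7 lower, and some of the latter passed the filter through retina alone. Of all genes, 24.9% were higher and 37.4% lower. Grb10 (0.62 ± 0.13), an adaptor that restrains insulin receptors, and Nck1 (0.58 ± 0.17) were higher. In KO mice Grb10 was higher (0.69), Nck1 did not pass (0.30, adjusted p = 0.096), and Sh2b1 was higher (1.16, adjusted p = 0.0014), which did not pass in Het mice (0.60, 0.089). Crk (0.20) and Crkl (-0.02), which couple docking proteins to Rap and Rac exchange factors, did not pass. Nck2, the relative of Nck1 (-4.46), and the Shc family members Shc2 (-4.90) and Shc3 (-4.19) were at 0 to 7 in Het rods. They entered through retina alone and could only be lower.

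Among the kinases of the Pag1 group, Yes1 was higher (1.01 ± 0.20), at 655, 465 and 762 in Het retina and 1256, 950 and 955 in Het rods. Fyn (-2.61) and Src (-4.62, at 6 to 14 in Het rods) were lower. Lyn (-3.33), at 0 to 1 in Het rods, could only be lower. Csk did not pass in Het mice (-0.04 ± 0.31) and was higher in KO mice (0.70, adjusted p = 0.044). Of 8 Ras exchange factors and GTPase-activating proteins tested, Rasgrf2 was higher (0.91 ± 0.18), whereas Rasgrf1 (-5.33) and Rasgrp1 (-4.96) were among 4 that were lower. Rasgrp3, at 1 to 9 in Het rods, was another of the 4 and could only be lower. Nf1 (0.17) and Rasa1 (0.10), which switch Ras off, did not pass. Of 8 negative regulators, 6 were lower, among them Spred1 (-1.35) and Cbl (-0.63), and Spry2 did not pass (-0.19). Spry1, at 1 to 2 in Het rods, was among the 6 and could only be lower. Of all genes, 24.9% were higher and 37.4% lower, and of those with a rod library at the filter value 30% and 24.9%.

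**Figure D5:**
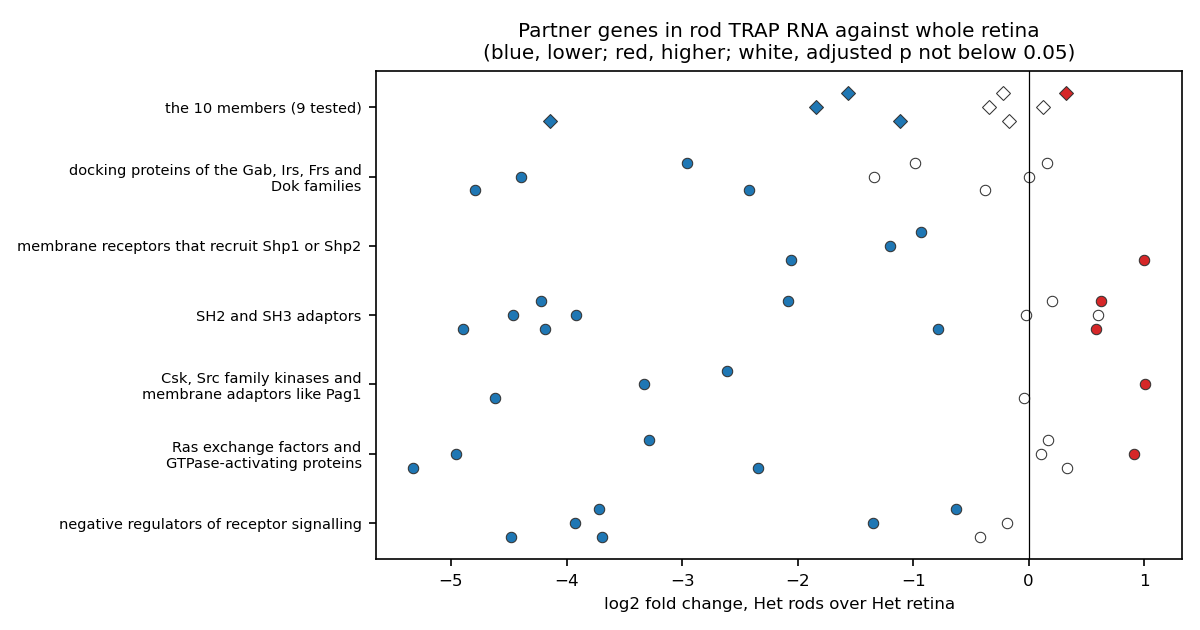
Log2 fold change of Het rods over Het retina for the 9 members tested (diamonds, top) and the 46 partners tested (circles), by role. Blue is lower and red higher at an adjusted p below 0.05, and white did not pass. Of the blue circles, 11 are partners that entered through retina alone and could only be lower. Red points lie near 1 or below in the receptor, adaptor, kinase and Ras groups, and the blue points run from -0.63 for Cbl to -5.33 for Rasgrf1.

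Between KO and Het rods, 33 partners were tested, 6 were higher and 1 was lower, with a median log2 fold change of 0.02, beside 15.7% higher and 8.58% lower of all genes, a share near the background for the higher ones. Spry2, a feedback inhibitor of receptor tyrosine kinase signalling, was higher, at 754, 781 and 866 in KO against 579, 552 and 719 in Het rods (log2 0.465 ± 0.115, adjusted p = 0.014). The others higher were Dok3 (1.32 ± 0.39), Dok4 (0.96 ± 0.24), Csk (0.75 ± 0.16), Sh2b1 (0.61 ± 0.12) and Irs2 (0.51 ± 0.12). Yes1 was lower (-0.34 ± 0.11, adjusted p = 0.046), a call lost without Het rods replicate 1 or any of the KO rod replicates (adjusted p 0.055 to 0.14). Of the calls, Spry2 alone was kept with the GC trend removed (0.62, adjusted p = 0.0055), and its 1395 neighbours in GC had a median of -0.155. With that trend removed, 1 of 33 partners was called, beside 490 higher and 437 lower among 12907 genes. The partners thus held no larger share of calls than the table as a whole. In that fit Csk was at 0.0019 and Irs2 at 0.026, and their neighbours in GC had medians of 0.765 and 0.469. Spry2 had an adjusted p of 0.061 without Het rods replicate 1 and of 0.068 without the trend and robust options, a fit in which Irs2, Dok3, Sh2b1, Csk and Yes1 missed the threshold too (0.051 to 0.13). Dok4 missed the threshold without Het rods replicate 1 (0.057) or KO rods replicate 2 (0.055), and Dok3 without Het rods replicate 1 or 3 or KO rods replicate 1 or 2 (0.068 to 0.11). In whole retina 0 of 49 partners were called, and Spry2 differed by 0.20 ± 0.14. The interaction term called 0 of 49 as well, and for Spry2 it was 0.16 ± 0.18 (adjusted p = 0.82, limma). Irs2, Csk and Sh2b1, which passed against retina in KO mice only, had an adjusted p of 0.8 to 0.81 in it. In the fit of 12 libraries 0 genes were called between KO and Het rods, Spry2 included.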

How the data were processed

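The 12 libraries hold polyA RNA of rod TRAP and whole retina, prepared with the SMART-Seq V4 kit after cycloheximide perfusion. The submitters' processing notes name CASAVA 1.8.2, HISAT2, DESeq2, edgeR and the build GRCm39 without roles. The authors deposited whole numbers per gene, treated here as a signal: reads multiplied by 1 factor per library and rounded, a step inferred from the values, with estimated factors of 0.6435 to 1.4555. For Het retina replicate 3 (1.005) the fit was no better than with a factor of 1. Factors of 6 simulated libraries were recovered to within 0.003. The table held 0 columns of other samples. How genes were counted, and with which annotation and strand, is not given in the sources used here.

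Groups come from title, genotype and tissue. Genes with a value of about 10 in at least 3 libraries and a sum of at least 15 were scaled by TMM factors, raised by a pseudocount of 2, put on the log2 scale and tested in limma 3.58.1 (R 4.3.3, trend and robust options) on the 6 libraries compared, or on all 12 for the interaction. P-values were adjusted by Benjamini-Hochberg over all genes tested. No count model was run because the values are scaled. Replicate numbers are shared by all groups. Same-numbered deviations correlated at 0.47, 0.41 and 0.25 in Het rods and retina, at -0.014 to 0.33 in KO mice and at -0.59 to 0.40 between genotypes. Such correlations over genes do not show which libraries share a mouse, so the replicate block was fitted as an alternative only. GC content and lengths come from GENCODE M21 transcripts (GRCm38), matched by Ensembl identifier for 98.3% to 98.9% of genes tested.

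The 10 members, the partner list and the marker lists were chosen with earlier results of these data known. Named are the members, in each partner role at most the 3 highest by mean and the 3 with the largest log2 fold change among those called between KO and Het rods, and the 5 genes with the highest Pearson correlation with Ptpn11. Dok5, Nck1, Nck2, Shc2, Shc3, Src, Lyn, Rasgrf1, Rasgrp1, Rasgrp3 and Spry1 were named after their values were seen. On simulated libraries with 200 genes changed by a log2 of 1, limma recovered 82% in Het rods against retina (15907 genes tested) and in KO against Het rods (13064). It recovered 45.5% in the interaction (16477). At a log2 of 0.5 it recovered 16.5%, 10% and 0% of such genes (15868, 13103 and 16433 tested). All simulations used 1 fixed spread between libraries, so recovery in these data may differ. Python 3.11.15, NumPy 2.4.6, pandas 2.3.3 and matplotlib 3.10.9 were also used. Alternatives covered scaling, pseudocount, filter, variance model, fold limit, block, pooled fit, GC trend, rod-depleted genes and left-out libraries.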

Additional observations from a re-analysis of the deposited data

How the results depend on the processing

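With 3 libraries against 3, simulated differences of a log2 of 0.5 were mostly missed. The simulations changed 200 genes at 1 fixed spread, whereas 2044 and 1120 genes were called in KO rods, so their recovery does not measure what these data resolve. In KO against Het rods, Yes1 was called at -0.34 and Spry2 at 0.465. Whether the small differences of Ptpn11, Grb2 and Sos1 lie within reach of these data was not tested. Low reads limit the values of Ptpn6 and Gab2 in rods further. Gab1, Gab2, Shc1 and Pag1 kept their direction and call in both rod against retina comparisons under all alternatives.

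In KO against Het rods, no member passed in the reported fit. Ptpn11 passed with library totals alone (-0.341), a filter at about 50 (-0.260), the GC trend removed (-0.365), rod-depleted genes removed (-0.260), the replicate block (-0.259, adjusted p = 0.044) and the block with the GC trend removed (-0.365). The members called were 2, 2, 1, 2, 1 and 1 in these fits, with Sos1 or Grb2 as the other member, and 1 (Grb2, adjusted p = 0.037) with TMM factors from all genes, an alternative chosen after seeing the data like the block with GC. Leaving out libraries gave 0 to 1 members and -0.356 to -0.173 for Ptpn11. Sos2 turned to 0.0885 with the GC trend removed, with or without the block. Numbers shared between genotypes do not pair libraries. Beside Grb2 in Het rods against retina and Ptpn11 here, the block changed no member's call.

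In KO rods against retina, library totals gave 10 members called, with Ptpn11 at -0.387 and Sos1 at -0.525, and removing the GC trend gave 9, with Frs2 at 0.322, Grb2 at 0.339 and Sos2 at 0.132. Sos1 was also at -0.012 with RLE scaling and -0.084 with the filter at about 50. Left-out libraries gave Ptpn11 -0.068 to 0.224 and Sos1 -0.353 to 0.124. In Het rods against retina, library totals gave Ptpn11 -0.089 and Sos1 -0.287, and removing the GC trend gave Frs2 0.148, Grb2 0.182 and Sos2 0.091. Sos1 was called higher in these GC fits, at 0.437 in Het and 0.533 in KO mice, as was Ptpn11 (0.852 and 0.568). Left-out libraries gave Sos1 -0.093 to 0.202 there, and Ptpn11 -0.125 to 0.039 in KO against Het retina. The GC fits moved the median of all genes to 0.444 and 0.46 in Het and KO mice, and these values hold that shift. Causes beyond these shifts were not tested. Over all members, signs changed in 6 of 162 alternative values in Het and 14 of 176 in KO rods against retina, 18 of 175 in KO against Het rods, 21 of 179 in retina and 16 of 229 of the interaction.

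Genes called in KO rods numbered 2044 higher and 1120 lower. They were 1708 and 2076 with library totals, 490 and 437 with the GC trend removed, 774 and 225 without trend and robust options, 1460 and 250 with a fold limit, 0 in the fit of 12 libraries (3127 with an unadjusted p below 0.05), and 1527 to 3062 in all on leaving out libraries. In Het rods against retina, library totals gave 1541 higher and 7650 lower and the GC fit 8099 and 5062. In KO mice they gave 1485 and 8198, and 8190 and 5067. Leaving out libraries gave 5518 to 8957 and 6077 to 9759 calls. Per coding length Ptpn11 ranked 2 in both retina groups.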
